A study of Mus musculus with 10 samples.

Results

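The 50 genes described here drive DNA replication, passage through G1 and mitosis, and they were taken by name from the gene table of a bulk RNA sequencing study of obstructed mouse kidney, in which all 50 of them were among the 13920 listed genes. They comprised 17 replication genes, 7 genes of the G1 cyclins and their kinases, and 26 mitosis genes. Unilateral ureteral obstruction (UUO) ties off the ureter of a single kidney, so that urine backs up and the kidney becomes injured, inflamed and fibrotic. Obstructed left kidneys gave 5 libraries and sham-operated left kidneys another 5, all from C57BL/6 mice, with no drug treatment in either group and each library made from total RNA of whole tissue. The labels give neither age, sex, genotype other than the strain nor days after surgery, and they do not say that each library came from a separate animal, so that the p-values speak for the variation among these 10 samples, which may be technical.

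A cell that divides first licenses its replication origins with the MCM helicase, is pushed through G1 by cyclin D and cyclin E with their kinases, copies its DNA in S phase, and then builds and resolves a spindle under cyclin B and Cdk1. Many of these genes are transcribed mainly in the phase that needs them, under E2F factors for replication and under the DREAM, B-Myb and FoxM1 complexes for mitosis. Adult kidney cells are mostly out of cycle, and tubule cells are known to re-enter it after injury.

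Replication and mitosis genes were higher in obstructed kidneys almost throughout. Levels are given in FPKM, sequenced fragments scaled by transcript length and by library size. A gene was called when limma gave an adjusted p below 0.05 for the difference of log2(FPKM + 1), UUO minus sham, among the 13202 genes that reached 0.5 FPKM in 5 or more libraries. Of the 50 genes, 49 were tested, 47 were called higher, 0 were called lower and 2, Gmnn and Ccnd1, were not called by limma (0 lower also at an unadjusted p below 0.05), where 58.5% of all genes tested were called higher and 16.1% lower. At least doubled on this scale (a log2 difference of 1 or more) were 34 of them, against 18.7% of all genes tested. Every UUO library stood above every sham library for 44 of the 49 tested, against 47.5% of all genes tested, and also for Foxm1, which was not tested.

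Because low genes could pass the filter through the UUO libraries alone, 15 of the 49 were tested with every sham library under 0.5 FPKM, 12 of them mitosis genes. The filter fixed their direction and set their UUO libraries above every sham library. Their calls, p-values and separation of the groups are therefore no support for that direction. Among the other 34, 32 were called higher, against 55.6% of all genes that reached 0.5 FPKM in at least 1 sham library. For 29 of these 34 every UUO library stood above every sham library, against 5407 of those 12343 genes. With no filter, all 50 were tested and 48 were called higher, against 58.9% of all 13920 genes. A different number of dividing cells in the tissue and a different amount of RNA per cell cannot be told apart in bulk samples.

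The mitosis genes had the largest median change of the 3 classes. Their median log2 difference was 1.37 over 25 tested, with 25 called higher and 21 doubled, and the median ratio of mean FPKM was 10.1, from 1.5 for Ect2 to 35.0 for Bub1. For the 17 replication genes the median log2 difference was 1.03, with 16 called higher and 10 doubled, and the median ratio of means was 3.26. For the 7 G1 genes the median was 0.79, with 6 called higher and 3 doubled, and a median ratio of 2.62. The median over all genes tested was 0.40, with 58.5% called higher and 18.7% doubled. The filter had fixed the direction of 12 of these mitosis, 2 replication and 1 G1 genes. Without them, 13 of 13 mitosis, 14 of 15 replication and 5 of 6 G1 genes were called higher, against 55.6% of all such genes. Their medians were 1.66, 1.03 and 0.93, against 0.35. The medians over all tested genes of each class depend on the pseudocount and the scaling. With pseudocounts of 0.1 and 0.01 FPKM they were 2.86 and 3.38 for mitosis, 1.59 and 1.69 for replication and 1.38 and 1.38 for G1 genes, and with quantile normalization 0.69, 0.52 and 0.13. The difference between the classes was not tested, since the genes are not independent samples.

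**Figure D1:**
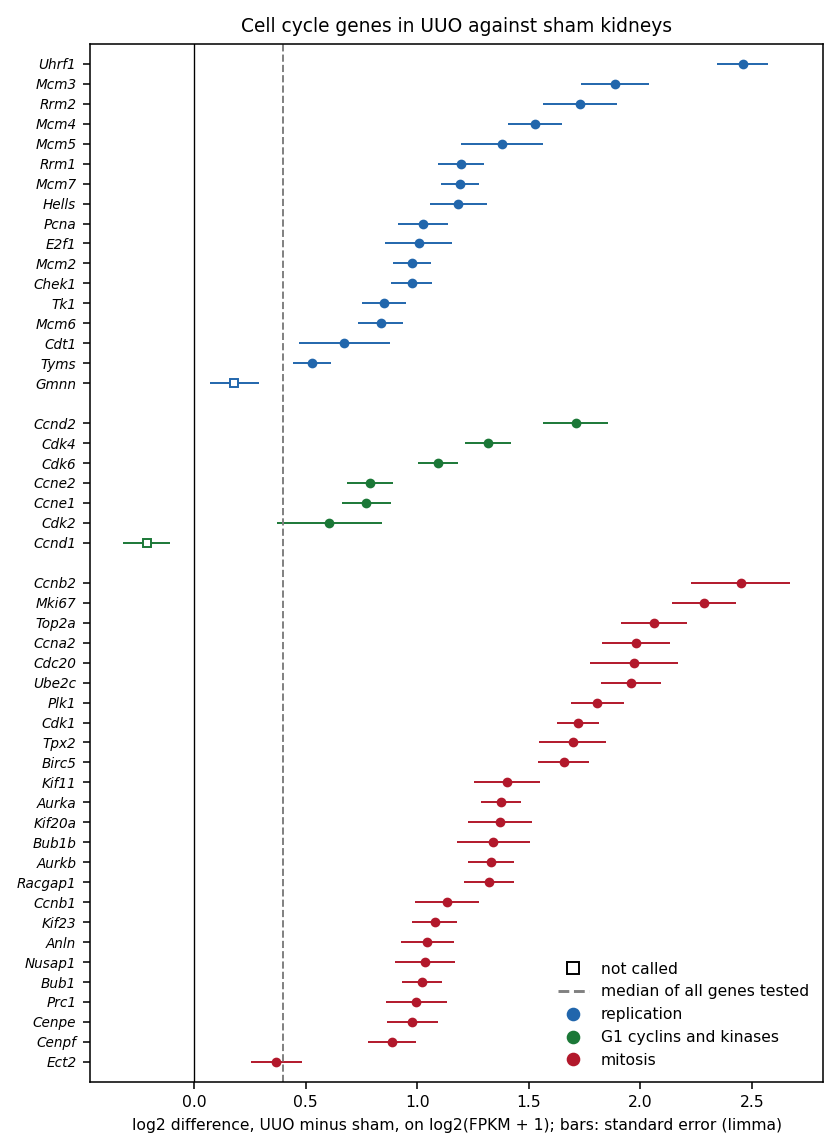
Log2 difference (UUO minus sham, on log2(FPKM + 1)) of each of the 49 tested genes, a row per gene, coloured by class, with bars for the limma standard error (5 libraries per group). Open squares are the 2 genes not called, Gmnn and Ccnd1, both called lower with median-of-ratios scaling, and the dashed line is the median of all genes tested, 0.40.

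Summed over each class, the separation was clean in every library as deposited. The 26 mitosis genes together made 64.9, 106, 62.5, 64.2 and 83.7 FPKM in UUO libraries 1 to 5, against 10.1, 13.4, 7.31, 8.87 and 9.54 FPKM in sham libraries 1 to 5. The 17 replication genes made 100.04 to 141 FPKM in UUO, against 44.3 to 52.2 FPKM in sham. The 7 G1 genes made 88.9 to 98.8 FPKM in UUO, against 60.6 to 76.0 FPKM in sham, a sum dominated by Ccnd1. Without Ccnd1 the other 6 made 41.9 to 59.4 FPKM in UUO and 16.1 to 20.4 FPKM in sham. On the deposited scale no summed level overlapped between the groups. Median-of-ratios scaling divides UUO libraries by 1.15 to 1.25 and sham libraries by 0.80 to 0.95. With it the summed G1 levels of the groups overlap, and Ccnd1 was called lower.

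The promoters of these genes carried different short words by class. RefSeq promoters (GRCm38.p6, 250 bases before to 50 bases after the start site) were matched for 40 of the 50 genes and for 10241 of the genes tested. Words searched on both strands were the cell cycle homology region TTTGAA (CHR, bound by DREAM and B-Myb complexes), the CCAAT box bound by NF-Y, and words of E2F factors, which were counted separately where they overlap each other. The E2F words were TTCCCGC as the first, TTTGGCG as the second, TTTCGCG as the third and also the word TTGGCGC. The CHR word stood in 16 of 21 mitosis promoters (76.2%) and in 1 of 15 replication promoters (6.67%), where 11.9% of all promoters of genes tested held it. CCAAT stood in 18 of 21 mitosis promoters (85.7%), in 9 of 15 replication promoters (60.0%) and in 38.2% of all. Both words together stood in 15 of 21 mitosis promoters (71.4%), in 1 of 15 replication promoters and in 4.97% of all. E2F words stood in 4 of 21 mitosis promoters (19%), in 9 of 15 replication promoters (60.0%) and in 14.6% of all. The variant CHR word TTTAAA stood in 6 of 21 mitosis promoters, in 3 of 15 replication promoters and in 8.99% of all. Of the 4 matched G1 promoters, 0 held TTTGAA, 1 held CCAAT and 1 an E2F word. A matching word is a description of the sequence and not a bound site.

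**Figure D2:**
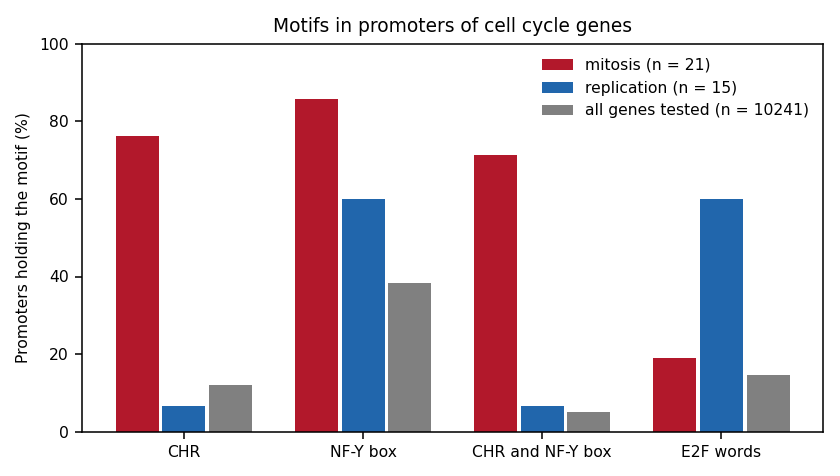
Share of promoters (y axis, %) holding each word in the 21 mitosis genes, the 15 replication genes and the 10241 genes tested that have a RefSeq promoter. CHR and NF-Y box words stand together in 71.4% of the mitosis promoters against 4.97% of all, and E2F words in 60.0% of the replication promoters against 14.6% of all.

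Promoters of 3 mitosis and 3 replication genes are printed to show the layouts behind these shares, and they were chosen after the matches were seen. Each stretch ends at the base before the RefSeq start site, reads 5′ to 3′ in the direction of the gene, and has the searched words in capitals, reverse-strand matches included (such as ATTGG for the CCAAT box).
Cdc20: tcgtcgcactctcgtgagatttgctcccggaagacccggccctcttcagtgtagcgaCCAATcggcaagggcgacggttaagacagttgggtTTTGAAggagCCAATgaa
Cdk1: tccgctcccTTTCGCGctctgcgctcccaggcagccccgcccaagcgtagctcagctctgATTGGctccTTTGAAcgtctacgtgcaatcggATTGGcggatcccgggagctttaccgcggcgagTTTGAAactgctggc
Mki67: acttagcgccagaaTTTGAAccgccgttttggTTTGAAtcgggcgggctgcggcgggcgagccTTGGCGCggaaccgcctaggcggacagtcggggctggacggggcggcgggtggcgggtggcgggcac
Mcm6: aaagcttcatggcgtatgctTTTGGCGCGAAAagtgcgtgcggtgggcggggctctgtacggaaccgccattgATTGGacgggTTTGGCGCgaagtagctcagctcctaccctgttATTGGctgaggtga
Mcm5: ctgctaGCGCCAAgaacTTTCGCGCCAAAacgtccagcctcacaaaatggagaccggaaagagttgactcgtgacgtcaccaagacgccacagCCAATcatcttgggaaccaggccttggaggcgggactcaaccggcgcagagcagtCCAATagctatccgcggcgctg
Uhrf1: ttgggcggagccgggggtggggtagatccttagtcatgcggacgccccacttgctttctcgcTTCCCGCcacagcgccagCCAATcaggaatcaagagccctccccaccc
On GRCm38.p6 these lie at chr4:118437344-118437453 (minus strand) for Cdc20, chr10:69352913-69353052 (minus) for Cdk1, chr7:135716380-135716509 (minus) for Mki67, chr1:128359706-128359835 (minus) for Mcm6, chr8:75109339-75109508 (plus) for Mcm5 and chr17:56303227-56303336 (plus) for Uhrf1. In Cdc20 the CHR word begins 18 bases before the start site, with CCAAT at 53 and at 8 bases before it. Cdk1 has CHR words at 71 and 15 bases before the start and reversed CCAAT words at 80 and 48, and an E2F word at 131. Mki67 shows CHR words at 116 and 98 bases before the start, with an E2F word at 67, while its CCAAT words fall outside the stretch printed. Mcm6 holds overlapping E2F words from 110 and from 47 bases before the start and reversed CCAAT words at 57 and 14. Mcm5 has a cluster of 4 E2F words between 164 and 148 bases before the start and CCAAT at 77 and 22. Uhrf1 has an E2F word at 48 bases and CCAAT at 30 bases before the start, and none of the 3 replication promoters holds TTTGAA.

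Licensing and helicase genes rose in 7 of 8 cases, with a median log2 difference of 1.08. Mcm2 to Mcm7 encode the ring-shaped helicase that is loaded at origins and unwinds DNA. Mcm3 (chromosome 1, 20802968 to 20820312, in the deposited coordinates of GRCm38) had 4.21, 7.11, 6.99, 4.93 and 4.36 FPKM in UUO libraries 1 to 5, against 0.751, 0.482, 0.579, 0.809 and 1.10 FPKM in sham libraries 1 to 5. The lowest UUO library was above every sham library, and the difference was the largest of the helicase genes (ratio of means 7.43; log2 difference 1.89, SE 0.152; limma, adjusted p = 1.46e-06). Mcm4, Mcm5 and Mcm7 were also doubled, at ratios of 3.73, 4.42 and 2.66. Mcm2 and Mcm6 rose by ratios of 2.58 and 1.94 without reaching the doubling threshold. Mcm6 was the most abundant of the 6 helicase genes, at 11.4 ± 1.91 FPKM in UUO and 5.86 ± 0.300 FPKM in sham (SD, n = 5 each).

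For the loader and its inhibitor the groups overlapped. Cdt1, which brings the helicase to origins, had 1.26, 2.51, 3.82, 2.64 and 4.43 FPKM in UUO libraries 1 to 5 and 1.46, 1.27, 1.38, 1.07 and 1.66 FPKM in sham libraries 1 to 5. The groups overlapped through UUO 1, and the gene was called (log2 difference 0.67, SE 0.204; limma, adjusted p = 0.0112), but not with median-of-ratios scaling (log2 difference 0.34; limma, adjusted p = 0.157) or quantile normalization (log2 difference 0.0072; limma, adjusted p = 0.98). The only listed transcript of Cdt1 did not follow the gene value. It had 0.457, 0.512, 0.183, 0.0536 and 6.30 FPKM in UUO libraries and 0.357, 1.75, 1.46, 1.43 and 2.23 FPKM in sham libraries, and with transcript sums in place of gene values its log2 difference was -0.37 (limma, adjusted p = 0.518). Gmnn, which encodes geminin, the inhibitor of Cdt1, was the most abundant of these genes over all 10 libraries. Gmnn had 10.6, 14.4, 8.74, 9.74 and 10.5 FPKM in UUO, against 9.02, 9.11, 9.02, 9.57 and 9.71 FPKM in sham, and 4 of the 5 UUO libraries lay above the sham range of 9.02 to 9.71 FPKM and UUO 3 below it. It was not called (log2 difference 0.18, SE 0.109; limma, adjusted p = 0.155) and was called lower with median-of-ratios scaling (log2 difference -0.28; limma, adjusted p = 0.0308), while rescaling to equal sums called it higher (log2 difference 0.36; limma, adjusted p = 0.0174).

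The sliding clamp and the enzymes of nucleotide supply rose in all 5 cases as deposited. Pcna, the clamp that holds polymerases on DNA, had 30.8, 36.2, 35.2, 27.9 and 26 FPKM in UUO libraries 1 to 5, against 14.2, 12.8, 14.5, 17.9 and 14.4 FPKM in sham. Every UUO library was above every sham library, and the ratio of means was 2.11 (log2 difference 1.03, SE 0.111; limma, adjusted p = 1.15e-05). Pcna was the most abundant replication gene in both groups. Its named pseudogenes on chromosomes 19 and X could share reads with it, and how shared reads were counted is not stated. The same holds for named pseudogenes of Tyms, Ccnb1 and Ccnb2. Rrm2, the S-phase subunit of ribonucleotide reductase, had 6.99, 9.82, 8.02, 6.58 and 7.64 FPKM in UUO, against 1.74, 2.74, 0.926, 1.70 and 1.39 FPKM in sham. Its groups were well apart and it changed most among the nucleotide genes (ratio 4.59; log2 difference 1.73, SE 0.164; limma, adjusted p = 4.53e-06). Rrm1, the larger reductase subunit, rose by a ratio of 3.48, thymidine kinase Tk1 by 2.54 and thymidylate synthase Tyms by 1.78. The call of Tk1 was lost with quantile normalization (log2 difference 0.16; limma, adjusted p = 0.279). The call of Tyms was lost with median-of-ratios scaling (limma, adjusted p = 0.0697), and its sign turned under quantile normalization (log2 difference -0.16; limma, adjusted p = 0.219).

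Genes of S-phase control and chromatin upkeep held the largest change of the replication class. Uhrf1, which recognises hemimethylated DNA behind the fork and recruits the maintenance methyltransferase, had 6.07, 8.29, 7.54, 5.06 and 6.60 FPKM in UUO libraries 1 to 5, against 0.539, 0.460, 0.327, 0.299 and 0.333 FPKM in sham. The lowest UUO library was far above the highest sham library, and the ratio of means was 17.1 (log2 difference 2.46, SE 0.115; limma, adjusted p = 5.01e-08). Hells, a remodelling helicase that works with DNA methylation, was at 1.78 ± 0.558 FPKM in UUO and 0.201 ± 0.0245 FPKM in sham. E2f1, an activating E2F factor, was at 2.75 ± 0.807 FPKM in UUO and 0.841 ± 0.229 FPKM in sham. Chek1, the kinase of the replication checkpoint, was at 1.32 ± 0.275 FPKM in UUO and 0.176 ± 0.0811 FPKM in sham (SD, n = 5 each). All 4 genes were called higher with groups apart, although Hells and Chek1 passed the filter through UUO alone, and E2f1 was not called with quantile normalization (log2 difference 0.31; limma, adjusted p = 0.108).

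The G1 cyclins did not move together. Ccnd1, cyclin D1, was the most abundant of all 50 genes and had 46.5, 39.3, 36.1, 41.7 and 47.0 FPKM in UUO libraries 1 to 5 and 56.2, 42.2, 45.9, 55.5 and 45.2 FPKM in sham libraries 1 to 5. The groups overlapped and the difference was not called (log2 difference -0.21, SE 0.106; limma, adjusted p = 0.0911), while with median-of-ratios scaling Ccnd1 was called lower (log2 difference -0.71; limma, adjusted p = 0.000158). Ccnd2, cyclin D2, had 6.12, 10.3, 6.85, 9.51 and 6.37 FPKM in UUO, against 1.62, 1.47, 1.38, 2.25 and 1.62 FPKM in sham. Every UUO library was above every sham library, a ratio of means of 4.70 (log2 difference 1.71, SE 0.147; limma, adjusted p = 2.38e-06). On the per-length scale the level of Ccnd1 was above that of Ccnd2 in both groups, at 42.1 ± 4.67 against 7.83 ± 1.93 FPKM in UUO and 49.0 ± 6.42 against 1.67 ± 0.343 FPKM in sham (SD, n = 5 each). Ccne1 and Ccne2, the cyclins E that start S phase, rose by ratios of 3.65 and 4.23 with sham means under 0.5 FPKM, and Ccne2 passed the filter through UUO alone. With quantile normalization neither was called (log2 differences 0.098 and 0.13; limma, adjusted p = 0.408 and 0.258).

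All 3 G1 kinases were called higher as deposited. Cdk4, a partner of D cyclins, had 33.1, 36.5, 34.3, 29.1 and 25.8 FPKM in UUO libraries 1 to 5, against 10.7, 11.5, 11.8, 12.8 and 13.8 FPKM in sham. No library overlapped, and the ratio of means was 2.62 (log2 difference 1.32, SE 0.103; limma, adjusted p = 1.22e-06). Cdk6, the other partner of D cyclins, rose by a ratio of 2.59, with 6.57 ± 0.802 FPKM in UUO and 2.54 ± 0.246 FPKM in sham. Cdk2, the partner of cyclin E, was the least certain, with 1.57, 2.0, 4.8, 2.95 and 1.76 FPKM in UUO and 1.23, 1.69, 0.618, 1.99 and 1.05 FPKM in sham. Its groups overlapped (log2 difference 0.61, SE 0.236; limma, adjusted p = 0.0362), and the call was lost without UUO 3 or 4 or without sham 1, 3 or 5 (limma, adjusted p from 0.0632 to 0.0883), with median-of-ratios scaling (limma, adjusted p = 0.279) and with quantile normalization, where the sign turned (log2 difference -0.06; limma, adjusted p = 0.829). Exons of Cdk4 overlap those of Tspan31 on the opposite strand over 19.7% of their bases, and exons of Ccnd1 overlap the opposite strand gene LTO1 over 23.4%. Such overlaps were also found for Ube2c (22.8%), Ccne2 (17.4%), Ccna2 (12.5%) and Prc1 (11.1%). The use of strand in counting is not stated.

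**Figure D3:**
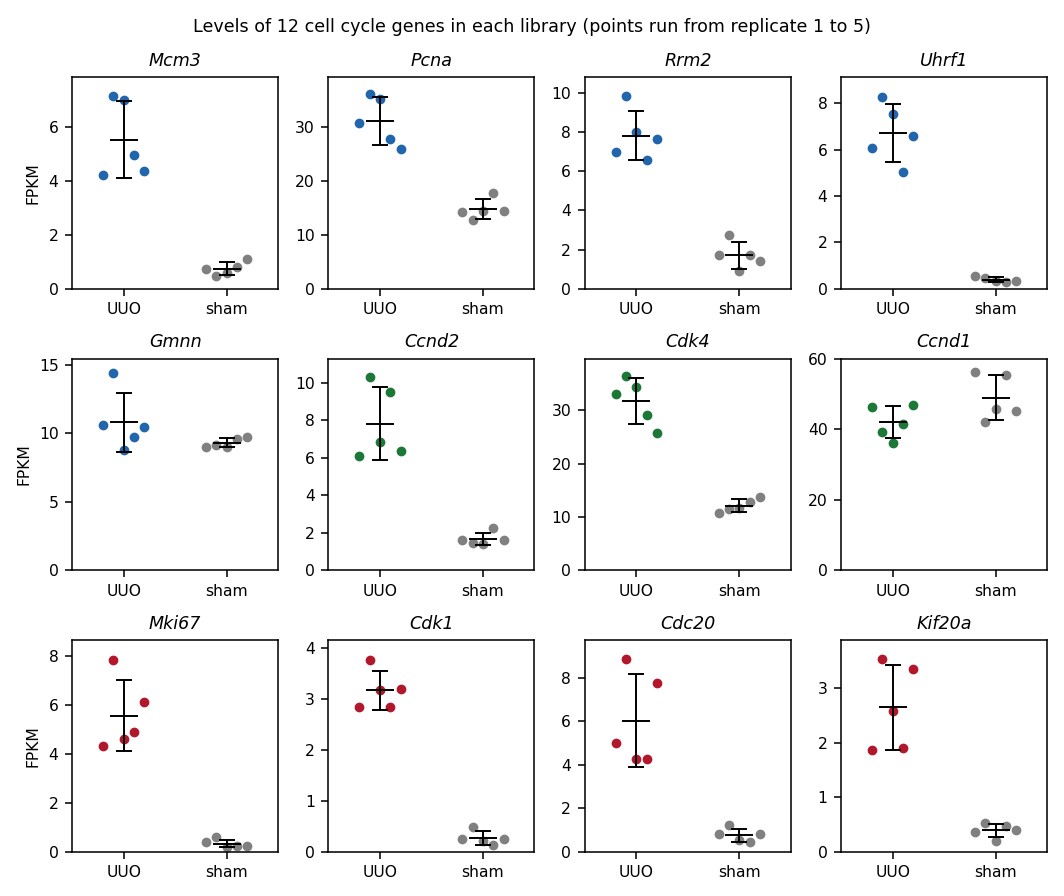
FPKM (y axes, from 0) of 12 of the genes in each of the 5 UUO and 5 sham libraries, as points in replicate order, with mean and SD. Groups are apart for 10 of these 12 selected panels, against 47.5% of all genes tested, and for Cdk1 the filter set them apart. For Gmnn and Ccnd1 the UUO and sham points overlap, and both were called lower with median-of-ratios scaling. Not shown are Cdt1, Cdk2 and Ect2, whose groups also overlapped.

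Mki67 and Top2a, common markers of cycling cells, had a median log2 difference of 2.17, the highest of the roles. Mki67, the Ki-67 antigen gene (chromosome 7, 135689784 to 135716361), whose promoter is printed above, had 4.30, 7.84, 4.6, 4.88 and 6.11 FPKM in UUO libraries 1 to 5, against 0.383, 0.580, 0.193, 0.248 and 0.232 FPKM in sham libraries 1 to 5. Every UUO library was far above every sham library, and the ratio of means was 16.9 (log2 difference 2.28, SE 0.144; limma, adjusted p = 3.02e-07). Top2a, which untangles replicated chromosomes, was at 4.63 ± 1.37 FPKM in UUO and 0.324 ± 0.118 FPKM in sham (SD, n = 5 each), a ratio of 14.3.

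The cyclins and kinase of mitotic entry were called higher in all 4 tested cases, 2 of which, Cdk1 and Ccnb1, passed the filter through UUO alone. Ccnb2, a cyclin B, had 7.03, 9.78, 4.17, 6.47 and 8.70 FPKM in UUO libraries 1 to 5, against 0.676, 0.863, 0.260, 0 and 0.701 FPKM in sham libraries 1 to 5, where it was listed at 0 in sham 4. Every UUO library was above every sham library (log2 difference 2.45, SE 0.221; limma, adjusted p = 3.18e-06). Cdk1, the kinase that cyclin B activates (chromosome 10, 69335146 to 69352938), had 2.84, 3.77, 3.18, 2.84 and 3.20 FPKM in UUO, against 0.255, 0.490, 0.208, 0.128 and 0.247 FPKM in sham. It stayed under 0.5 FPKM in every sham library, so that the filter fixed its direction (ratio of means 11.9; log2 difference 1.72, SE 0.0932; limma, adjusted p = 1.13e-07). Ccna2, cyclin A, was at 4.82 ± 1.28 FPKM in UUO and 0.464 ± 0.219 FPKM in sham. Ccnb1, the other cyclin B, was at 1.63 ± 0.639 FPKM in UUO and 0.177 ± 0.113 FPKM in sham. Foxm1, the forkhead factor that activates many of these genes, had 0.914, 0.469, 0.912, 0.418 and 0.398 FPKM in UUO libraries and 0.195, 0.277, 0.166, 0.105 and 0.276 FPKM in sham libraries. Foxm1 fell under the filter and was not tested, although every UUO library lay above every sham library, and with no filter it was called higher (log2 difference 0.42; limma, adjusted p = 0.00545).

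Kinases, the checkpoint and the exit machinery of mitosis were called higher in 8 of 8 cases, all doubled. Of these Plk1, Aurkb, Bub1 and Bub1b passed the filter through UUO alone, so that the filter fixed the direction of 4 of the 8. Cdc20, which activates the anaphase-promoting complex and whose promoter is printed with its CHR word, had 5.03, 8.85, 4.26, 4.28 and 7.75 FPKM in UUO libraries 1 to 5, against 0.810, 1.21, 0.516, 0.421 and 0.808 FPKM in sham. UUO 2 and UUO 5 were the high libraries, every UUO library was above every sham library, and the ratio of means was 8.01 (log2 difference 1.97, SE 0.198; limma, adjusted p = 6.76e-06). Ube2c, the ubiquitin-conjugating partner of that complex, was at 4.05 ± 1.01 FPKM in UUO and 0.290 ± 0.177 FPKM in sham. Plk1, Aurka and Aurkb, the polo-like and Aurora kinases, rose by ratios of 11.5, 7.23 and 16. Birc5, survivin, a partner of Aurkb in the chromosomal passenger complex, rose by a ratio of 8.85. The checkpoint kinase gene Bub1 had 0.837, 1.49, 0.899, 1.01 and 1.30 FPKM in UUO, against 0.0166, 0.0604, 0.0612, 0 and 0.0201 FPKM in sham, at 0 in sham 4. Its ratio of means, 35.0, was the highest of the 50 genes and rests on sham values of 0 to 0.0612 FPKM, so that its size is uncertain. Bub1b, its partner in the checkpoint, was at 2.14 ± 0.901 FPKM in UUO and 0.207 ± 0.105 FPKM in sham (SD, n = 5 each).

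Spindle and kinetochore genes were called higher in 5 of 5 cases, 3 of them doubled, and the filter fixed the direction of 3 of the 5, Tpx2, Kif11 and Cenpf. Tpx2, which nucleates spindle microtubules and activates Aurora A, had 2.23, 4.73, 2.38, 2.56 and 3.77 FPKM in UUO libraries 1 to 5, against 0.281, 0.301, 0.242, 0.207 and 0.187 FPKM in sham. UUO 2 was again the highest library, every sham library was under 0.5 FPKM, and the ratio of means was 12.9 (log2 difference 1.70, SE 0.151). Nusap1, a microtubule-bundling protein, had 3.18, 4.86, 2.50, 3.6 and 4.14 FPKM in UUO, against 1.22, 1.58, 1.19, 0.966 and 1.27 FPKM in sham. It was the most abundant of this role in sham and its ratio of means was the lowest, 2.94, with no library overlapping (log2 difference 1.04, SE 0.134; limma, adjusted p = 4.13e-05). Kif11, the motor that pushes spindle poles apart, was at 2.47 ± 0.908 FPKM in UUO and 0.284 ± 0.0876 FPKM in sham (SD, n = 5 each). The kinetochore genes Cenpe and Cenpf rose by ratios of 3.85 and 16.1, and Cenpe was not called with quantile normalization (log2 difference 0.27; limma, adjusted p = 0.0574).

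Central spindle and cytokinesis genes were called higher in 6 of 6 cases as deposited, 3 of which, Prc1, Racgap1 and Anln, passed the filter through UUO alone. Kif20a, a kinesin of the central spindle, had 1.87, 3.53, 2.59, 1.91 and 3.36 FPKM in UUO libraries 1 to 5, against 0.360, 0.529, 0.20, 0.466 and 0.398 FPKM in sham. No library overlapped (ratio of means 6.79; log2 difference 1.37, SE 0.142; limma, adjusted p = 8.24e-06), although 29.3% of its exon bases overlap Cdc23 on the opposite strand. Ect2, which switches on RhoA at the division plane, was the most abundant gene of this role over all libraries. Ect2 had 1.74, 3.02, 2.22, 1.90 and 2.64 FPKM in UUO, against 1.22, 1.74, 1.46, 1.68 and 1.59 FPKM in sham, and UUO 1 lay within the sham range. It had the smallest change of the mitosis genes (ratio 1.5; log2 difference 0.37, SE 0.114; limma, adjusted p = 0.0126), was not called with median-of-ratios scaling (log2 difference 0.04; limma, adjusted p = 0.771) and was called lower with quantile normalization (log2 difference -0.31; limma, adjusted p = 0.0292). Kif23 and Racgap1, the components of centralspindlin, rose by ratios of 5.04 and 10.2. Prc1, which bundles the central spindle, rose by 9.67, and Anln, the actin-binding anillin of the cleavage furrow, by 9.96.

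A single obstructed kidney library was the highest for most of these genes. UUO 2 was the highest of the 5 UUO libraries for 41 of the 50 genes, 23 of 26 mitosis, 14 of 17 replication and 4 of 7 G1 genes, where it was the highest for 26% of all genes tested. Its median ratio to the mean of the other 4 UUO libraries was 1.53 for mitosis genes and 1.31 for replication genes, against 1.04 for all genes tested. UUO 2 also had the lowest sum of 9 kidney tubule and podocyte markers of the UUO libraries (540 FPKM, against 887 to 1105 FPKM in the other 4), the highest sum of 9 macrophage markers (1369 FPKM, against 736 to 1296 FPKM) and the highest sum of 6 lymphocyte markers (17.4 FPKM, against 7.89 to 11.9 FPKM). It was not extreme for the other marker lists. The sums of fibroblast markers (474 FPKM, against 450 FPKM in UUO 2) and injured tubule markers (1137 against 626 FPKM) were highest in UUO 3. Those of endothelial (78.5 against 66.7 FPKM) and red blood cell markers (605 against 525 FPKM) were highest in UUO 1. The part of any of these cells in the pattern was not tested. Without UUO 2, 16 replication, 6 G1 and 25 mitosis genes were still called higher, with median log2 differences of 0.97, 0.74 and 1.27, and 8, 3 and 18 were doubled. Of those called, 2 replication, 1 G1 and 12 mitosis genes had passed the filter through UUO alone, so that their direction could not turn.

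Replication and mitosis genes did not rank the remaining libraries alike. UUO 3 lay above the UUO mean for replication genes, with a median ratio to the other libraries of 1.16, and below it for mitosis genes, at 0.798. UUO 5 lay at 0.983 for replication genes and at 1.15 for mitosis genes. Among sham kidneys, sham 2 was the highest library for 16 of 26 mitosis genes and for 2 of 17 replication genes, whereas sham 4 was the highest for 9 of 17 replication genes and 4 of 26 mitosis genes. Sham 4 was the highest sham library for 50.2% of all genes tested. Its summed markers were also the highest for tubule and podocyte, macrophage, lymphocyte, fibroblast, endothelial and injured tubule lists. The endothelial sum, for example, was 62.5 FPKM, against 27.6 to 33.6 FPKM in the other 4. Only red blood cell markers were highest elsewhere, in sham 1 (1162 FPKM, against 848 FPKM in sham 4). Without sham 4, 16 replication, 6 G1 and 25 mitosis genes were called higher, the filter again fixing the direction of 2, 1 and 12 of them. These shares describe the libraries and were not tested.

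**Figure D4:**
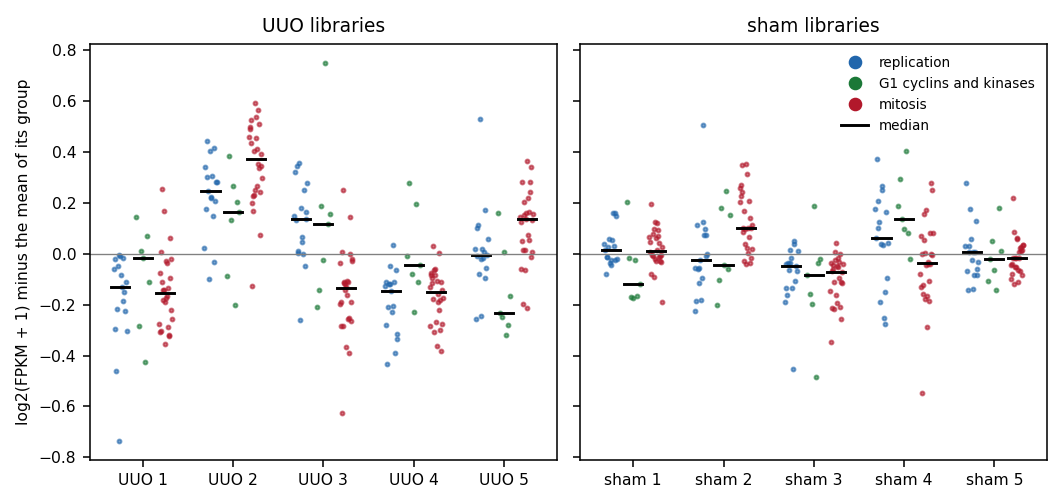
Deviation of each gene from the mean of its own group on log2(FPKM + 1) (y axis), by library and class, with a line at the class median, UUO libraries in the left panel and sham libraries in the right. UUO 2 lies above its group in all 3 classes, and in UUO 3 the replication genes lie above and the mitosis genes below the group mean.

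Other genes of the same machinery were read from 9 lists, whose counts stand beside 58.5% of all genes tested called higher, 16.1% called lower and a median log2 difference of 0.40. As among the 50 genes, some members passed the filter through UUO alone and had their direction fixed by it, and their number is given for each list. Of 13 tested genes of origin recognition, loading and firing, 9 rose (69.2%) and 0 fell, with a median log2 difference of 0.60 and 1 gene fixed by the filter. Gins2, a subunit of the helicase activator GINS, rose to 2.74 ± 0.733 FPKM in UUO, against 0.579 ± 0.0882 FPKM in sham, and Gins4 had 18.7 ± 0.853 FPKM in UUO and 11 ± 1.08 FPKM in sham. With median-of-ratios scaling 8 of the 13 were called higher and 3 lower, and with quantile normalization 5 higher and 5 lower. Of 22 tested genes of the polymerases, clamp loader and strand maturation, 19 rose (86.4%) and 1 fell, with a median of 0.86 and 0 genes fixed by the filter. Lig1, the ligase that seals Okazaki fragments, was at 5.76 ± 1.23 FPKM in UUO and 1.11 ± 0.425 FPKM in sham, and the small subunit gene Pold4 of polymerase delta at 31.5 ± 2.14 FPKM in UUO and 14.7 ± 1.61 FPKM in sham. Pole4, a histone-fold subunit of polymerase epsilon, fell to 12.3 ± 0.982 FPKM in UUO, against 17.2 ± 1.02 FPKM in sham (log2 difference -0.45; limma, adjusted p = 0.000181). With median-of-ratios scaling 15 of the 22 were called higher and 2 lower.

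Among mitotic lists, 13 of 15 kinetochore and checkpoint genes were called higher and 0 lower, but 7 of the 15 were fixed by the filter, and of the other 8, 6 were called higher. Of the condensin genes 8 of 8 were called higher, 3 of them fixed by the filter. With median-of-ratios scaling 11 of the 15 and 6 of the 8 were called higher and 0 lower. Ndc80, the kinetochore's microtubule hook, was at 2.91 ± 0.822 FPKM in UUO and 0.146 ± 0.0348 FPKM in sham, a ratio of 19.95. Zwint, another kinetochore gene, was at 21.2 ± 2.69 FPKM in UUO and 16.5 ± 1.17 FPKM in sham. The condensin core gene Smc2 had 6.49 ± 1.27 FPKM in UUO and 1.56 ± 0.338 FPKM in sham, and the condensin II gene Ncaph2 20.6 ± 1.89 FPKM in UUO and 15.7 ± 0.716 FPKM in sham (SD, n = 5 each). Zwint and Ncaph2 changed sign with median-of-ratios scaling (log2 differences -0.15 and -0.12; limma, adjusted p = 0.225 and 0.217). Of 5 other mitotic kinesins tested, 4 passed the filter through UUO alone and so had to be higher, among them Kif22 with the largest log2 difference of the list (1.22, a ratio of means of 11). The only kinesin of the list that the filter did not fix was Kif20b, which fell. Kif20b had 1.70, 2.81, 1.83, 2.30 and 2.38 FPKM in UUO libraries 1 to 5, against 8.51, 8.97, 10.6, 10.4 and 9.48 FPKM in sham libraries 1 to 5. Every UUO library was below every sham library, the reverse of its relative Kif20a (log2 difference -1.73, SE 0.106; limma, adjusted p = 2.39e-07).

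The anaphase-promoting complex and separase list had 13 of 16 genes called higher (81.3%), 1 lower, 1 fixed by the filter and a median log2 difference of 0.51, and 7 higher and 2 lower under median-of-ratios scaling. Fbxo5, the complex's inhibitor Emi1, rose by a ratio of 2.96, and Anapc13, a small subunit, fell to 24.6 ± 3.42 FPKM in UUO, against 32.1 ± 1.99 FPKM in sham (log2 difference -0.38; limma, adjusted p = 0.00366). In the E2F, RB and DREAM list 9 of 15 rose (60.0%) and 2 fell (13.3%), shares near those of all genes tested, with a median of 0.25 and 1 gene fixed by the filter, and with median-of-ratios scaling 7 were called higher and 7 lower. Tfdp1, the dimerisation partner of E2F factors, was at 10.1 ± 2.07 FPKM in UUO and 5.25 ± 0.939 FPKM in sham, and E2f5, a repressive E2F, at 18.3 ± 0.985 FPKM in UUO and 15.5 ± 1.40 FPKM in sham, a gene called lower with median-of-ratios scaling (log2 difference -0.25; limma, adjusted p = 0.0199). Lin52, a MuvB core subunit of DREAM, fell to 5.01 ± 1.08 FPKM in UUO, against 7.26 ± 0.536 FPKM in sham (log2 difference -0.48; limma, adjusted p = 0.00446). The other that fell was Rbl2, the pocket protein p130 of DREAM, with a ratio of 0.748 (limma, adjusted p = 0.00995), named after its values were seen.

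Inhibitors of the cycle were higher in the same kidneys. All 7 tested CDK inhibitor genes were called higher, 1 of them fixed by the filter, and 6 of them with median-of-ratios scaling. Cdkn1a, p21, had 20.9, 28.3, 27.0, 22.7 and 24 FPKM in UUO libraries 1 to 5, against 0.952, 1.48, 0.729, 1.38 and 1.38 FPKM in sham, a ratio of means of 20.7 (log2 difference 3.55, SE 0.122; limma, adjusted p = 1.94e-08). On log2(FPKM + 1) this difference was above that of any of the 50 genes, while by ratio of means Bub1 was higher. Cdkn1b, p27, was at 19.1 ± 2.63 FPKM in UUO and 10.1 ± 1.71 FPKM in sham. Of 9 tested genes of the mitotic entry phosphatases and kinases, 6 were called higher (66.7%) and 0 lower, 2 of the 9 being fixed by the filter and 4 of the other 7 called higher, and 5 were called higher and 2 lower with median-of-ratios scaling. Cks1b, a small CDK-binding subunit, was at 14.6 ± 1.20 FPKM in UUO and 2.51 ± 0.476 FPKM in sham, and Ensa, an inhibitor of the phosphatase that opposes Cdk1, at 16.2 ± 0.709 FPKM in UUO and 11.4 ± 1.25 FPKM in sham (SD, n = 5 each).

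The kidneys differed in the markers of many cell types at the same time. Of 9 kidney tubule and podocyte markers 6 fell and 2 rose, their sum being 540 to 1105 FPKM in UUO and 1877 to 2424 FPKM in sham, with Slc34a1, the proximal tubule phosphate transporter, at 265 ± 169 FPKM in UUO and 792 ± 126 FPKM in sham and Aqp2, the collecting duct water channel, at 4.86 to 31.5 FPKM in UUO and 62.1 to 399 FPKM in sham. With median-of-ratios scaling 7 of the 9 were called lower and 0 higher. Macrophage markers were called higher in 9 of 9 cases, 2 of them fixed by the filter (sum 736 to 1369 FPKM in UUO and 32.8 to 50.6 FPKM in sham), led by Lyz2 at a ratio of 68.3. Of 4 tested T and B lymphocyte markers 3 passed the filter through UUO alone, so that their count called higher is no result (summed level 7.89 to 17.4 FPKM in UUO and 0.797 to 2.03 FPKM in sham), with the T cell kinase gene Lck at 2.94 ± 1.36 FPKM in UUO and 0.225 ± 0.122 FPKM in sham, and the B cell receptor gene Cd79b at 2.86 ± 0.646 FPKM in UUO and 0.580 ± 0.435 FPKM in sham. Cd3e was listed at 0 in sham 4 and Cd79a in sham 5.

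Fibroblast and injured tubule markers moved as well. Fibroblast and myofibroblast markers were called higher in 8 of 8 cases, 1 of them fixed by the filter (sum 265 to 474 FPKM in UUO and 15.2 to 26.9 FPKM in sham), with Col1a1 at a ratio of 91.6. Endothelial markers were called higher in 3 of 6 cases, a share below the 58.5% of all genes tested, and lower in 0. Their sum was 55.3 to 78.5 FPKM in UUO and 27.6 to 62.5 FPKM in sham, with Cdh5 at a ratio of 2.75 and Egfl7 at 2.61. With median-of-ratios scaling 2 of the 6 were called higher and 1 lower, where 34.1% of all genes tested were called higher and 34.3% lower. Injured tubule markers were called higher in 6 of 6 cases, 2 of them fixed by the filter (sum 401 to 1137 FPKM in UUO and 1.78 to 5.74 FPKM in sham), with Havcr1, KIM-1, at 301 ± 133 FPKM in UUO and 0.556 ± 0.119 FPKM in sham, and Krt20 listed at 0 in sham 2 and sham 3. Red blood cell markers fell in 3 of 6 cases (sum 286 to 605 FPKM in UUO and 449 to 1162 FPKM in sham), with Slc4a1 at a ratio of 0.0846 and Hba-a1 at 0.596, and in 6 of 6 cases with median-of-ratios scaling. Which of these cells carried the replication and mitosis transcripts was not tested.

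The transcripts behind the gene values showed no called switch. Of the 50 genes, 23 had at least 2 listed transcripts, and 17 transcripts of 8 genes met the minimum of 1 FPKM per gene in every library. By limma on the arcsine square root of each share, 0 of the 17 were called (adjusted p below 0.05 and a difference of at least 10 percentage points). Over all 14003 transcripts tested 0.714% were called. An unadjusted p below 0.05 was reached by 2 of the 17, Mcm6-201 and Mcm6-203. They are the only 2 listed transcripts of Mcm6, so that their shares mirror each other (-19.7 and 19.7 percentage points) and are not separate results. The largest difference was that of Nusap1-202, with a share of 75.3% ± 20.3 in UUO and 53.7% ± 17.3 in sham (SD, n = 5 each; a difference of 21.6 percentage points; limma, adjusted p = 0.383). Uhrf1, too low in sham to be tested, had 4 transcripts each above 0 in at least 4 UUO libraries, of which Uhrf1-201 alone was above 0 in sham libraries, an observation made after its values were seen.

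Gene values and the sums of their listed transcripts were not the same quantity. They were equal within 1% in every library for 4 of the 50 genes, and no source used here says how the gene value was built. With transcript sums in place of gene values, 45 of the 49 tested genes kept their call and direction. Tyms, Ccne2 and Cdk2 were no longer called (limma, adjusted p = 0.0508, 0.0525 and 0.160), and Cdt1 changed sign as given above. This setting was added after the data were seen.

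How the libraries are scaled sets where 0 lies. The deposited values put the median log2 difference of all genes tested at 0.40, and median-of-ratios scaling at 0.0022. With that scaling 43 of the 49 tested genes were called higher and 2 lower, where 34.1% of all genes tested were called higher and 34.3% lower. The class medians became 1.13 for mitosis, 0.76 for replication and 0.59 for G1 genes. Not called with it were Cdt1, Tyms, Cdk2 and Ect2, and called lower were Gmnn and Ccnd1. With quantile normalization 12 of 17 replication, 3 of 7 G1 and 23 of 25 mitosis genes were called higher. Over all 13202 genes tested, 3970 were called higher and 4793 lower with it. The calls of Cdt1, Tk1, Tyms, E2f1, Ccne1, Ccne2, Cdk2 and Cenpe were lost, and Ect2 was called lower.

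**Figure D5:**
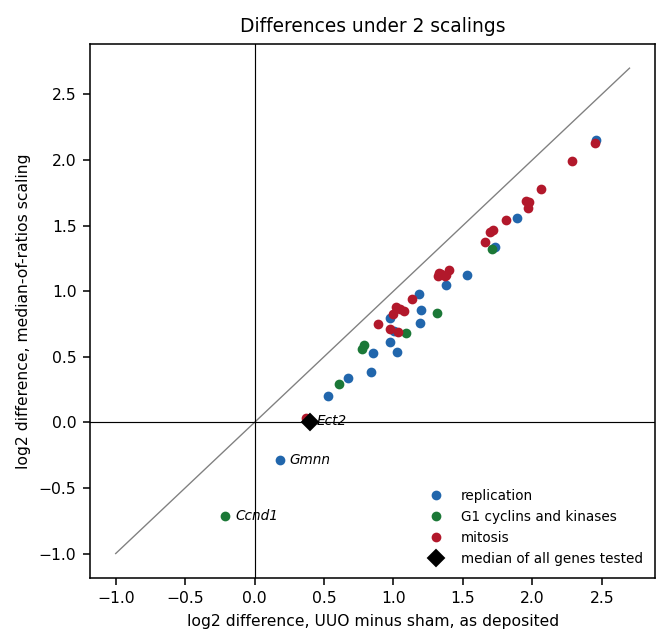
Log2 difference of the 49 tested genes as deposited (x axis) and with median-of-ratios scaling (y axis), coloured by class, with the line of equality. Points lie below the line, the median of all genes (diamond) drops to 0.0022, and Gmnn and Ccnd1 lie below 0 on the y axis.

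The libraries themselves were alike within groups. Pearson's r of log2(FPKM + 1) over the genes tested was 0.946 to 0.977 within UUO, 0.965 to 0.992 within sham and 0.783 to 0.885 between the groups, and 0 pairs of libraries were identical. The gene values summed to 282172 to 302519 FPKM in UUO libraries and 327994 to 343018 FPKM in sham libraries. The files used here give no counts, so the depth behind each level is unknown, and levels near 0 carry an error that cannot be stated.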

How the data were processed

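Whole left kidneys of mice after UUO (5 libraries) or a sham operation (5 libraries) were sequenced from total RNA with a stranded kit, per the labels' protocols. The deposited tables hold a value per gene and per transcript for each library. The unit is not named in the headers, and the authors' values were read as FPKM from their decimals and column sums. The submitters' processing notes name cutadapt, HISAT2, StringTie and the build GRCm38, without versions or settings, and no source used here says whether counting used strand.

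Values were log2(FPKM + 1), with genes kept at 0.5 FPKM or more in at least 5 libraries (13202 of 13920, with 718 not tested), and tested with limma 3.58.1 (R 4.3.3; trended prior, Benjamini-Hochberg adjustment over all genes tested, threshold 0.05). Transcript shares were tested on the arcsine square root scale. The test was checked on simulated data. Promoters came from RefSeq on GRCm38.p6, and exon overlaps and named pseudogenes from GENCODE M21, in which 13912 of the 13920 gene IDs were found. Python 3.11.15, numpy 2.4.6, pandas 2.3.3 and matplotlib 3.10.9 were used. Marker sums leave out Itgam, whose symbol stands on more than 1 row.

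The 50 genes, the lists and the tests were chosen with earlier results of these data known. Values in every library are given for Mki67, Pcna, Ccnd1 and Cdk1, for the gene of each role with the largest change and that with the highest mean, and for genes not called or not tested; from each list, the largest rise, the largest fall and the highest mean are named. Values in every library of Cdt1, Cdk2 and Bub1, and the results for Rbl2, Cdh5 and Uhrf1 transcripts, were added after they were seen. Alternatives were other pseudocounts, filters and scalings, a replicate block and leaving out each library, and, chosen after seeing the data, gene values as sums of listed transcripts.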

Additional observations from a re-analysis of the deposited data

Results flagged for a closer look

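Each of the 50 genes was examined in both groups for a single library that stood apart from the other 4, by Dixon's ratio with a critical value of 0.71 for 5 libraries. Of 100 gene and group pairs 9 met it, where chance gives about 1 in 20.

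UUO 2 stood above the other UUO libraries for 3 mitosis genes. Ccna2, cyclin A, was at 7.04 FPKM in UUO 2 and at 3.70 to 4.48 FPKM in the others. Birc5, survivin, was at 4.75 FPKM in UUO 2 and at 2.94 to 3.17 FPKM in the others. Ube2c was at 5.82 FPKM in UUO 2 and at 3.30 to 3.88 FPKM in the others. UUO 3 stood apart for Tyms, at 2.96 FPKM against 2.08 to 2.29 FPKM in the other UUO libraries.

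Sham 4 stood above the other sham libraries for 4 genes. Mcm4 was at 3.10 FPKM in sham 4 and at 1.79 to 2.08 FPKM in the others. Ccnd2 was at 2.25 FPKM in sham 4 and at 1.38 to 1.62 FPKM in the others. Chek1 was at 0.315 FPKM in sham 4 and at 0.108 to 0.167 FPKM in the others, and Racgap1 at 0.416 FPKM against 0.0986 to 0.177 FPKM. Sham 2 stood apart for Ccnb1, at 0.374 FPKM against 0.110 to 0.174 FPKM in the other sham libraries. Without UUO 2, UUO 3, sham 2 or sham 4 in turn, all 9 genes were still called higher by limma. For Chek1, Ccnb1 and Racgap1 the filter had fixed the direction in each of these fits, so that their calls are no support.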

How the results depend on the processing

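Pseudocounts, filters and rescaling to equal sums left all 47 calls of higher genes in place among the genes they tested. Where the filter of 0.5 FPKM was kept, it had fixed the direction of 15 of the 47, so that their calls there are no support. These were 2 replication, 1 G1 and 12 mitosis genes. Fewer genes were tested under a filter of 1 FPKM, where 15 replication, 4 G1 and 21 mitosis genes were called higher. Counts over all genes moved with scaling: 7727 called higher became 4507 with median-of-ratios scaling and 3970 with quantile normalization, 2130 called lower became 4522 and 4793, and 2472 doubled became 1527 and 1327, or 3764 and 3896 with pseudocounts of 0.1 and 0.01 FPKM. Doubled replication genes were 10, then 5 with median-of-ratios scaling and 4 with quantile normalization. Of G1 genes, 6 were called higher and 3 with quantile normalization, 0 lower and 1 with median-of-ratios scaling, and 3 doubled, 5 with either pseudocount and 1 with median-of-ratios scaling. Doubled mitosis genes were 21 and 9 with quantile normalization. Log2 differences that changed sign were those of Gmnn (-0.28 with median-of-ratios scaling, -0.17 with quantile normalization), Tyms (-0.16), Cdk2 (-0.061) and Ect2 (-0.31) with quantile normalization, and Cdt1 (-0.37) with transcript sums. The cause was not tested.

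Leaving out 1 library gave 7343 to 8011 genes higher, 1987 to 2162 lower and 2403 to 2717 doubled. Doubled replication genes ranged from 8 to 11 and doubled mitosis genes from 18 to 23, and G1 genes called higher from 5 to 6, Cdk2 being the gene lost. Called transcript shares, 100 in all, ranged from 60 to 124, with 65, 66, 61 and 60 without UUO 1, UUO 3, UUO 4 and sham 1.

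Libraries of the 2 groups share replicate numbers. Same-numbered libraries deviated together with r above 0.1 in 1 of 5 pairs (-0.255 to 0.149), and 0 of the UUO libraries correlated best with its own number. With so few libraries these values cannot tell whether the shared number stands for a pairing. With the replicate block, 7319 genes were called higher, 16 replication, 5 G1 and 25 mitosis genes among them. The filter had fixed the direction of 2, 1 and 12 of these. Cdk2 was not called with the block (limma, adjusted p = 0.0659), and called transcript shares fell to 3. Unknown depth limits what can be said of genes near 0.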
